A study of Mus musculus with 9 samples.

Results

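Txnip and the genes of glucose uptake around it were examined in mouse embryonic stem cell (mESC) lines derived from embryos that had been cultured in media of different glucose content. The set holds 10 genes: the alpha-arrestins Txnip and Arrdc4, the glucose transporters Slc2a1, Slc2a3 and Slc2a4, the hexokinases Hk1 and Hk2, and the transcription factors Mlx, Mlxip and Mlxipl. Txnip was chosen by its low level in the IVFWM lines, so its contrasts with that group are described without a test, and the other 9 genes were added for their roles beside it. The members were the transcript clusters, sets of probes for a gene, whose array annotation gives 1 of these symbols alone. They came to 11 clusters (2 for Hk1) of 21789 clusters with a single symbol, which stand for 19938 genes. No filter on low levels was applied, so all 11 were tested.

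RNA of 9 C57BL/6 mESC lines labelled female was profiled on Mouse Gene ST arrays from Affymetrix, with 1 array per line and 3 lines per group. The IVFWM lines came from IVF embryos kept in Whitten's medium, with 5.5 mM glucose, under 20% O2. The IVFKAA lines came from IVF embryos kept in KSOM with amino acids, with 0.2 mM glucose, under 5% O2. The control lines came from blastocysts flushed from the uterus after natural mating, with no embryo culture. Medium and oxygen therefore differ together between the IVF groups, and their parts cannot be told apart. From derivation on, all lines were treated alike, in KnockOut DMEM with serum, LIF and the 2i inhibitors under atmospheric oxygen, first on mouse embryonic fibroblast feeders and for the last passages on gelatin, and RNA was taken at the eighth passage. Each line is a separate derivation, and the mothers of all groups had received gonadotropins.

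TXNIP is an alpha-arrestin that binds thioredoxin and lowers glucose uptake by promoting removal of glucose transporters from the cell surface. Its close relative ARRDC4 also lowers glucose uptake. When glucose enters a cell, hexokinases trap it as glucose 6-phosphate, and the factors MondoA (encoded by Mlxip) and ChREBP (encoded by Mlxipl) respond to glucose phosphates. Each pairs with MLX and binds carbohydrate response elements, which are spaced pairs of E-box-like motifs, in the promoters of Txnip, Arrdc4 and other genes.

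The promoters of Txnip and Arrdc4, the members known as direct targets of MondoA and MLX, are shown to mark where motifs like the carbohydrate response element lie. The sequences are the 250 bases before the start site in RefSeq on GRCm38.p6, written 5′ to 3′ on the strand of the gene, with motif matches in capitals. In the Txnip promoter (chr3:96557707-96557956, plus strand) the capitals mark a spaced pair of CACGNG with 5 bases between its copies and the motif CCAAT, or ATTGG where it lies on the other strand. In the Arrdc4 promoter (chr7:68749239-68749488, minus strand) they mark the E-box CACGTG and CCAAT or ATTGG.
Txnip: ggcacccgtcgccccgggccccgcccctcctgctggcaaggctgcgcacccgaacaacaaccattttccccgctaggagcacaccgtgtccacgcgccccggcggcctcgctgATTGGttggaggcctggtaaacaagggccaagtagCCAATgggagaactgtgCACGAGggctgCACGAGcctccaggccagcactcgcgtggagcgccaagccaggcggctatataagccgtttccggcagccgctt
Arrdc4: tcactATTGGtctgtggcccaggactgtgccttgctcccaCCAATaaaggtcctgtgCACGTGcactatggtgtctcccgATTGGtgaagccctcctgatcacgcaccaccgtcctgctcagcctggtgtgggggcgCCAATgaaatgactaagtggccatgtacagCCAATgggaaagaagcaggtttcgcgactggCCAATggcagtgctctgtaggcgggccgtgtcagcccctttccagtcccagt
The spaced pair of Txnip begins at -85 from the start site, with CCAAT at -137 and -102. Of the 32851 promoters of 300 bases in the table (250 bases before and 50 after the start), 16 held such a pair on either strand, a share of 0.0487%. The Arrdc4 promoter held no spaced pair of this form. It held 1 copy of CACGTG, at -193, a motif in 7.15% of promoters, and 6 copies of CCAAT, where 1.06% of promoters hold at least 4. Among the other members, CACGTG lay in the promoter of Mlx and in 1 of the 2 promoters of Mlxipl. In all, 8 of the 10 genes matched the table, with 10 promoters, and Slc2a3 and Slc2a4 had no entry. A match is a stretch of letters and was not tested for binding.

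Levels are log2 values made by RMA, a summary of the probes of a cluster after background correction and normalization between arrays. The median level of the 23410 tested clusters lay between 4.64 and 4.70 in every line. A difference of 1 is a doubling, and each difference is the mean of the first group named minus that of the second. Differences were tested with limma (two-sided, Benjamini-Hochberg adjusted p under 0.05 over all tested clusters) and with the rank product, which the study's methods use, at a percentage of false positives (pfp) under 0.05. Limma called 0 clusters (0%) in each of the 3 comparisons. At an unadjusted p under 0.05 it had 1473 clusters for IVFWM against IVFKAA, 1380 for IVFWM against control and 1126 for IVFKAA against control, and the rank product called 65 (0.278%), 26 (0.111%) and 26 (0.111%) clusters in the same order. Every group enters 2 of the 3 comparisons, so that these share lines. In bulk RNA, fewer cells of a type and less RNA per cell cannot be told apart.

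The Y-linked gene Eif2s3y stood at 5.19 in IVFWM 3, 3.72 in IVFKAA 2 and 4.78 in control 1, against 1.77 to 2.20 in the other 6 lines. These 3 lines go against their female label in this gene, and there is 1 in each group. The results below are given with all 9 lines, and without these 3 where the value bears on them. Another shift concerned chromosome 6, which carries Hk2 and Slc2a3. Its genes had a median deviation from their level in the middle line of 0.158 in IVFKAA 1 and 0.235 in control 1. In the other 7 lines the median lay between -0.044 and 0. Genes of the X chromosome, which carries no member, had a median deviation of 0.299 in control 2 and 0.140 in control 3, and of -0.092 to 0 in the other lines. Both raised lines are control lines, so this shift enters the contrasts with control. Its part in the levels of the members was not tested.

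Txnip stood apart in the IVFWM lines. Its level was 8.38, 8.46 and 8.29 in the IVFWM lines, 9.07, 9.21 and 9.14 in the IVFKAA lines and 8.99, 8.85 and 9.08 in the control lines. All 3 IVFWM lines lay below the 6 other lines, with a gap of 0.61 to the nearest IVFKAA line and of 0.39 to the nearest control line. The IVFKAA and control lines overlapped by less than the spread within either group. The mean was 8.38 ± 0.08 in IVFWM lines, 9.14 ± 0.07 in IVFKAA lines and 8.97 ± 0.12 in control lines (SD, n = 3 each). The difference was -0.76 (SE 0.086) for IVFWM against IVFKAA, a ratio of 0.589, and -0.60 (SE 0.086) for IVFWM against control, a ratio of 0.661. These values chose Txnip and are given as a description. By size, 32 of 23410 clusters had a lower difference than Txnip for IVFWM against IVFKAA and 142 had one for IVFWM against control.

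In the contrast that did not choose it, IVFKAA against control, Txnip had a difference of 0.16 (SE 0.086, limma adjusted p = 0.918) and did not pass. Without the 3 lines with Y-linked signal the differences were -0.69 for IVFWM against IVFKAA, -0.55 for IVFWM against control and 0.14 for IVFKAA against control.

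**Figure D1:**
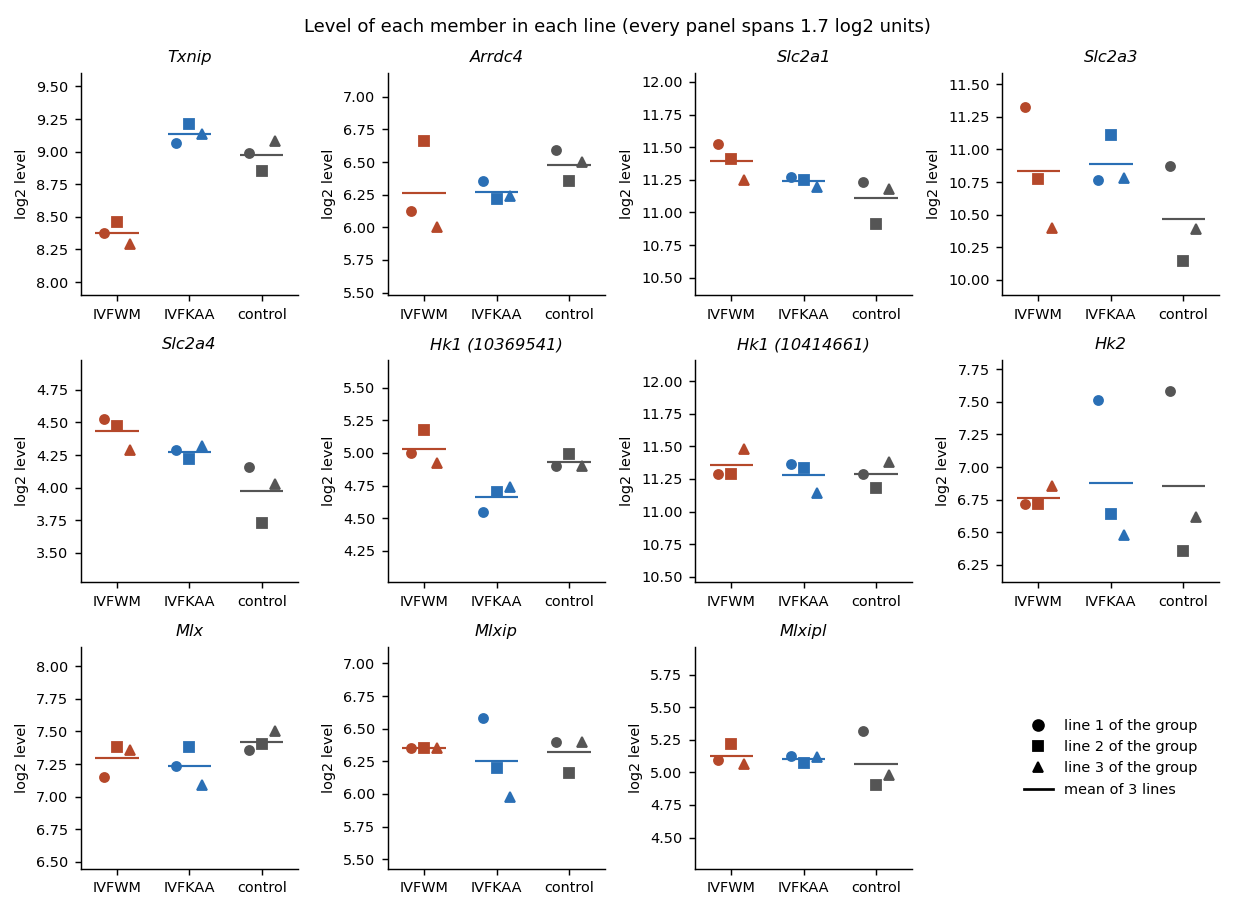
Level of each member cluster in each line: the vertical axes are log2 levels and all span the same width, points are lines (circle, square and triangle for lines 1, 2 and 3 of a group), and bars are means of 3 lines. Txnip is the member in which the IVFWM lines, between 8.29 and 8.46, lie apart from all other lines, while Hk2 is high in IVFKAA 1 (7.51) and control 1 (7.58) only.

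Arrdc4, the alpha-arrestin closest to TXNIP and a fellow target of MondoA, did not show this pattern over all 3 IVFWM lines. It had 6.13, 6.66 and 6.00 in IVFWM lines, 6.35, 6.22 and 6.24 in IVFKAA lines and 6.59, 6.36 and 6.50 in control lines. IVFWM held both the highest and the lowest line of the 9, so its lines enclosed those of the other groups. The difference was -0.0090 (SE 0.160, limma adjusted p = 0.995) for IVFWM against IVFKAA and -0.22 (SE 0.160, limma adjusted p = 0.854) for IVFWM against control. For IVFKAA against control it was -0.21 (SE 0.160, limma adjusted p = 0.918), with every IVFKAA line below every control line by at least 0.0043. Without IVFWM 2, whose level was the highest, the difference of IVFWM against IVFKAA was -0.21, and without IVFWM 3 it was 0.12. Against control it was -0.42 without IVFWM 2 (limma adjusted p = 0.809), with the remaining IVFWM lines below all 6 others, and -0.087 without IVFWM 3.

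Of the glucose transporters, Slc2a4 and Slc2a1 had their highest mean in IVFWM lines and Slc2a3 in IVFKAA lines, and none passed the test. Slc2a4 encodes GLUT4, the insulin-responsive transporter of muscle and fat. Its level was 4.53, 4.48 and 4.29 in IVFWM lines, 4.29, 4.22 and 4.32 in IVFKAA lines and 4.16, 3.73 and 4.03 in control lines. This is the only member whose mean lay below the median of all tested clusters, 4.67. All 3 IVFWM and all 3 IVFKAA lines lay above the highest control line, while the IVF groups overlapped each other. The difference was 0.16 (SE 0.118, limma adjusted p = 0.809) for IVFWM against IVFKAA, 0.46 (SE 0.118, limma adjusted p = 0.760) for IVFWM against control and 0.30 (SE 0.118, limma adjusted p = 0.918) for IVFKAA against control. Without the 3 lines with Y-linked signal these values were 0.20, 0.62 and 0.43, and the lowest adjusted p from limma among them was 0.354.

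Slc2a1 encodes GLUT1, the transporter of basal glucose uptake in most cells. Its level was 11.53, 11.41 and 11.25 in IVFWM lines, 11.27, 11.25 and 11.20 in IVFKAA lines and 11.24, 10.91 and 11.18 in control lines. The lowest IVFWM line lay 0.012 above the highest control line, and the IVFKAA lines overlapped both other groups. The difference was 0.15 (SE 0.107, limma adjusted p = 0.807) for IVFWM against IVFKAA, 0.29 (SE 0.107, limma adjusted p = 0.819) for IVFWM against control and 0.13 (SE 0.107, limma adjusted p = 0.918) for IVFKAA against control. The order of the means was the same as for Slc2a4, with IVFWM above IVFKAA and control lowest, and neighbours in that order overlapped for Slc2a1.

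Slc2a3 encodes GLUT3, a high-affinity transporter of neurons and of the early embryo. Its level was 11.33, 10.77 and 10.40 in IVFWM lines, 10.76, 11.11 and 10.78 in IVFKAA lines and 10.88, 10.14 and 10.39 in control lines. It varied most among the transporters, by 1.19 over the 9 lines, and all 3 groups overlapped. The difference was -0.053 (SE 0.254, limma adjusted p = 0.971) for IVFWM against IVFKAA, 0.36 (SE 0.254, limma adjusted p = 0.853) for IVFWM against control and 0.42 (SE 0.254, limma adjusted p = 0.918) for IVFKAA against control. Without the 3 lines with Y-linked signal the differences were 0.28, 0.79 and 0.51 in the same order, none of which passed (the lowest adjusted p from limma was 0.408). Leaving out single lines, the difference of IVFWM against control was 0.118 without IVFWM 1, 0.20 without control 2 and 0.582 without IVFWM 3, and that of IVFKAA against control was 0.254 without control 2. The gene lies on chromosome 6, and without IVFKAA 1 and control 1 the difference was -0.11 for IVFWM against IVFKAA, 0.57 for IVFWM against control and 0.68 for IVFKAA against control.

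The transporters varied together from line to line. Over the 9 lines, Slc2a1 and Slc2a4 had a Pearson's r of 0.94 (Spearman's rho 0.80), the highest among the 55 pairs of member clusters. Slc2a1 and Slc2a3 had an r of 0.79 (rho 0.63), and Slc2a3 and Slc2a4 an r of 0.74 (rho 0.58). After the mean of each group was taken off, the values of r were 0.92, 0.85 and 0.73. Without the 2 lines farthest from the median of the first gene of each pair, they were 0.79, 0.25 and 0.24, so that the relations of Slc2a3 rest on those lines. These are descriptions over lines that share culture conditions and normalization, with no test.

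**Figure D2:**
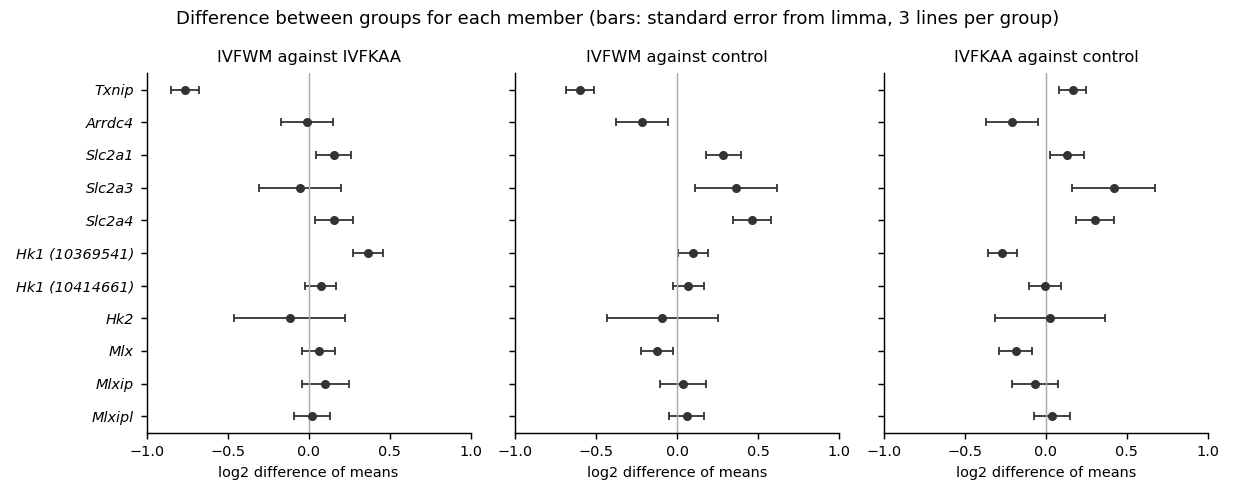
Difference of mean log2 levels between groups for each member cluster, with bars of 1 standard error from limma and 3 lines per group. Txnip lies at -0.76 and -0.60 in the comparisons that hold IVFWM and at 0.16 for IVFKAA against control, and the bars of Hk2 and Slc2a3 are the widest.

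Hk1, the hexokinase found in most tissues, is the only symbol annotated to 2 clusters, which behaved differently. Cluster 10369541, annotated with 8 transcript accessions of the gene, had 5.00, 5.17 and 4.92 in IVFWM lines, 4.55, 4.70 and 4.74 in IVFKAA lines and 4.90, 4.99 and 4.90 in control lines. All 3 IVFKAA lines lay below the other 6 lines, which overlapped. The difference was 0.37 (SE 0.091, limma adjusted p = 0.752) for IVFWM against IVFKAA, 0.097 (SE 0.091, limma adjusted p = 0.895) for IVFWM against control and -0.27 (SE 0.091, limma adjusted p = 0.918) for IVFKAA against control. Without the 3 lines with Y-linked signal the values were 0.44, 0.14 and -0.30.

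Cluster 10414661 had 11.29, 11.29 and 11.48 in IVFWM lines, 11.37, 11.33 and 11.14 in IVFKAA lines and 11.29, 11.18 and 11.38 in control lines. The groups overlapped, and the differences ran from -0.0053 to 0.074. Its annotation to Hk1 rests on 1 accession, which stands on 18 clusters in all, and 16 of these are shared with the ribosomal protein gene Rpl17. The levels of those shared clusters ran from 11.07 to 12.29, a range that holds every line of cluster 10414661. Its r with the other Hk1 cluster over the 9 lines was -0.098, and with the shared clusters it was -0.014 to 0.48. Which transcript it measures was not tested.

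Hk2, the inducible hexokinase of muscle, fat and tumour cells, varied more than any other member, by 1.22 over the 9 lines. It had 6.71, 6.71 and 6.85 in IVFWM lines, 7.51, 6.64 and 6.48 in IVFKAA lines and 7.58, 6.36 and 6.62 in control lines. IVFKAA 1 and control 1 lay above all other lines, and the groups overlapped. The difference was -0.12 (SE 0.342, limma adjusted p = 0.951) for IVFWM against IVFKAA, -0.093 (SE 0.342, limma adjusted p = 0.986) for IVFWM against control and 0.024 (SE 0.342, limma adjusted p = 1.000) for IVFKAA against control.

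The lines high in Hk2 were those in which chromosome 6 genes stood high, and also those with the highest primitive endoderm markers. The mean level of 7 such markers was 6.11 in IVFKAA 1 and 5.77 in control 1, against 4.70 to 5.11 in the other 7 lines. Over 456 genes of chromosome 6 the median deviation was 0.158 in IVFKAA 1 and 0.235 in control 1, while for 17 other autosomes (11 left aside) it lay between -0.063 and 0.040 in every line. Chromosome 11 was left aside because it had a shift of its own, 0.129 in IVFWM 2. Hk2 itself deviated by 0.80 and 0.87 from its middle line in IVFKAA 1 and control 1. Slc2a3, also on chromosome 6, stood at 10.76 and 10.88 there, inside the range of the other lines. Without both lines, Hk2 had a difference of 0.20 (SE 0.113) for IVFWM against IVFKAA, 0.27 (SE 0.113) for IVFWM against control and 0.070 (SE 0.124) for IVFKAA against control, with limma adjusted p of 0.742, 0.727 and 0.972. The part of the chromosome shift or of endoderm-like cells in the level of Hk2 was not tested.

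**Figure D3:**
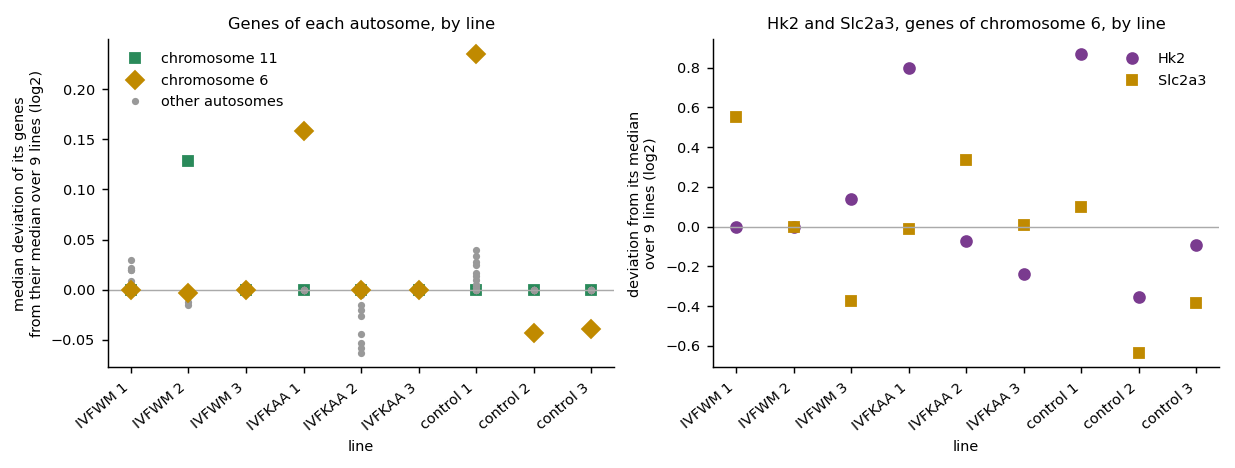
Left, median deviation of the genes of each autosome from their median over the 9 lines (log2), with chromosome 6 at 0.158 in IVFKAA 1 and 0.235 in control 1. Chromosome 11 is shown as green squares, at 0.129 in IVFWM 2, and the other autosomes as grey points. Right, deviation of Hk2 and Slc2a3 from their own median in each line (log2), where Hk2 reaches 0.80 in IVFKAA 1 and 0.87 in control 1 and Slc2a3 does not follow.

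None of the transcription factor genes Mlx, Mlxip and Mlxipl passed limma's test in any comparison. Mlx, the shared partner, had 7.15, 7.38 and 7.36 in IVFWM lines, 7.23, 7.38 and 7.09 in IVFKAA lines and 7.36, 7.41 and 7.50 in control lines. Control lines had the highest mean, and every group overlapped the others. The difference was 0.063 (SE 0.101, limma adjusted p = 0.908) for IVFWM against IVFKAA, -0.12 (SE 0.101, limma adjusted p = 0.873) for IVFWM against control and -0.19 (SE 0.101, limma adjusted p = 0.918) for IVFKAA against control.

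Mlxip, which encodes MondoA, was listed at 6.35 in all 3 IVFWM lines and had 6.58, 6.20 and 5.97 in IVFKAA lines and 6.40, 6.16 and 6.40 in control lines. The RMA summary can return the same level for several arrays, though the source of the equal values was not tested. The SD of 0 in IVFWM is therefore no measure of precision. Equal values within a group also occurred for Hk2 (IVFWM 1 and IVFWM 2) and for Hk1 10369541 (control 1 and control 3). The differences ran from -0.068 to 0.10 with an SE of 0.144, and the lowest adjusted p from limma was 0.889. Mlxipl, which encodes ChREBP, the liver and fat counterpart of MondoA, had 5.09, 5.22 and 5.06 in IVFWM lines, 5.12, 5.08 and 5.12 in IVFKAA lines and 5.32, 4.90 and 4.98 in control lines. Its differences were between 0.019 and 0.057 with an SE of 0.111, and all groups overlapped.

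Counted over the 11 clusters, 7 were higher and 4 lower in IVFWM than in IVFKAA, 7 were higher and 4 lower in IVFWM than in control, and 6 were higher and 5 lower in IVFKAA than in control. The median difference of the members was 0.063, 0.057 and 0.024, against -0.0068, 0.0046 and 0.0067 over all tested clusters. For IVFWM against IVFKAA, the groups did not overlap in 1 cluster that was higher (Hk1 10369541), where 4.03% of tested clusters were so, and in 1 that was lower (Txnip), where 4.63% were. For IVFWM against control, they did not overlap in 2 that were higher (Slc2a4 and Slc2a1; 3.58% of tested clusters) and 1 that was lower (Txnip; 4.55%). For IVFKAA against control, 1 was higher (Slc2a4; 4.38%) and 2 lower (Hk1 10369541 and Arrdc4; 3.7%). Leaving Txnip aside, some of the other 10 clusters had an unadjusted p under 0.05 from limma. For IVFWM against IVFKAA this was 1 cluster, higher (Hk1 10369541), where 6.29% of tested clusters were so in either direction, 3% of them higher and 3.29% lower. For IVFWM against control it was 2, both higher (Slc2a4 and Slc2a1), where 5.89% were so in either direction, 2.73% higher and 3.17% lower. For IVFKAA against control it was 1 higher (Slc2a4) and 1 lower (Hk1 10369541), where 4.81% were so in either direction, 2.73% higher and 2.08% lower. Of those 10, limma at the adjusted threshold and the rank product passed 0.

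None of the genes in 9 further lists of the pathway passed limma's test in any comparison. The 4 other alpha-arrestins were all lower in IVFWM than in IVFKAA (median -0.16), 2 higher and 2 lower than in control, and all higher in IVFKAA than in control (median 0.16). Arrdc3, an arrestin that acts on adrenergic receptors, averaged 7.62 in IVFWM lines and 7.97 in IVFKAA lines (difference -0.36, SE 0.242, limma adjusted p = 0.807). Arrdc1, which takes part in the release of vesicles at the plasma membrane, averaged 6.04 in IVFWM lines and 6.32 in IVFKAA lines (difference -0.28, SE 0.198, limma adjusted p = 0.807). Both differences had the sign of Txnip's, and neither passed. In the same comparison Arrdc2 (-0.024, SE 0.138) and Arrdc5 (-0.049, SE 0.096) lay within 1 SE of 0. Arrdc5 averaged 2.97 in IVFWM lines, below the median of all tested clusters. The median difference over all tested clusters was -0.0068 there.

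Of 10 other glucose-responsive targets of the MLX partners, 5 were higher and 5 lower in IVFWM than in IVFKAA (median -2.5e-05), 6 higher and 4 lower than in control, and 9 higher and 1 lower in IVFKAA than in control (median 0.071). Rgs16, a regulator of G protein signalling, averaged 6.02 in IVFWM lines and 6.34 in IVFKAA lines (difference -0.32, SE 0.146, limma adjusted p = 0.771). Gpd1, a glycerol 3-phosphate dehydrogenase, averaged 4.07 in IVFKAA lines and 3.73 in control lines (difference 0.34, SE 0.114, limma adjusted p = 0.918). As many of these targets had the sign of Txnip as had the opposite one in IVFWM against IVFKAA. Of 10 other genes of the MYC-MAX-MLX network, 5 were higher and 5 lower in IVFWM than in IVFKAA, and Myc had a difference of -0.23 (SE 0.254) there and of -0.37 (SE 0.254) for IVFWM against control, with limma adjusted p of 0.856 and 0.853.

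Of 11 other hexose transporters, 4 were higher and 7 lower in IVFWM than in IVFKAA, and 5 were higher and 6 lower than in control. Slc2a8, an intracellular hexose transporter, averaged 5.69 in IVFWM lines, 5.47 in IVFKAA lines and 5.32 in control lines, with a difference of 0.36 (SE 0.127, limma adjusted p = 0.819) for IVFWM against control. The 5 measured genes of GLUT4 storage vesicle traffic were all higher in IVFWM than in IVFKAA (median 0.17), led by Tbc1d4, an AKT substrate that restrains GLUT4 vesicles (difference 0.30, SE 0.138, limma adjusted p = 0.771). Tbc1d4 averaged 3.39 in IVFWM lines and 3.09 in IVFKAA lines, below the median of all tested clusters, 4.67. Against control, 4 of the 5 genes were higher in IVFWM and 1 was lower. The other hexokinase genes Hk3 and Hkdc1 and the regulator gene Gckr, 3 genes in all, were each lower in IVFWM than in IVFKAA, with a median of -0.24. Their means in the 2 groups ran from 2.94 to 3.72, also below the median of all tested clusters.

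Thioredoxin, which TXNIP binds and inhibits, and its reductases and peroxiredoxins were measured by 9 genes. All 9 were lower in IVFWM than in control (median -0.17, against 0.0046 over all clusters), 6 were lower and 3 higher in IVFKAA than in control, and 6 were lower and 3 higher in IVFWM than in IVFKAA. Prdx3, the mitochondrial peroxiredoxin, averaged 7.86 in IVFWM lines, 7.62 in IVFKAA lines and 8.09 in control lines, with a difference of -0.23 (SE 0.098, limma adjusted p = 0.819) for IVFWM against control and -0.47 (SE 0.098, limma adjusted p = 0.918) for IVFKAA against control. Of 5 partners and ubiquitin ligases of TXNIP, 2 were higher and 3 lower in IVFWM than in IVFKAA, with Nedd4l, a ubiquitin ligase, at a difference of 0.40 (SE 0.171, limma adjusted p = 0.771). Of 7 subunits of AMPK, a kinase that phosphorylates TXNIP, 2 were higher and 5 lower in IVFWM than in IVFKAA, with Prkag1 at -0.29 (SE 0.173, limma adjusted p = 0.798).

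**Figure D4:**
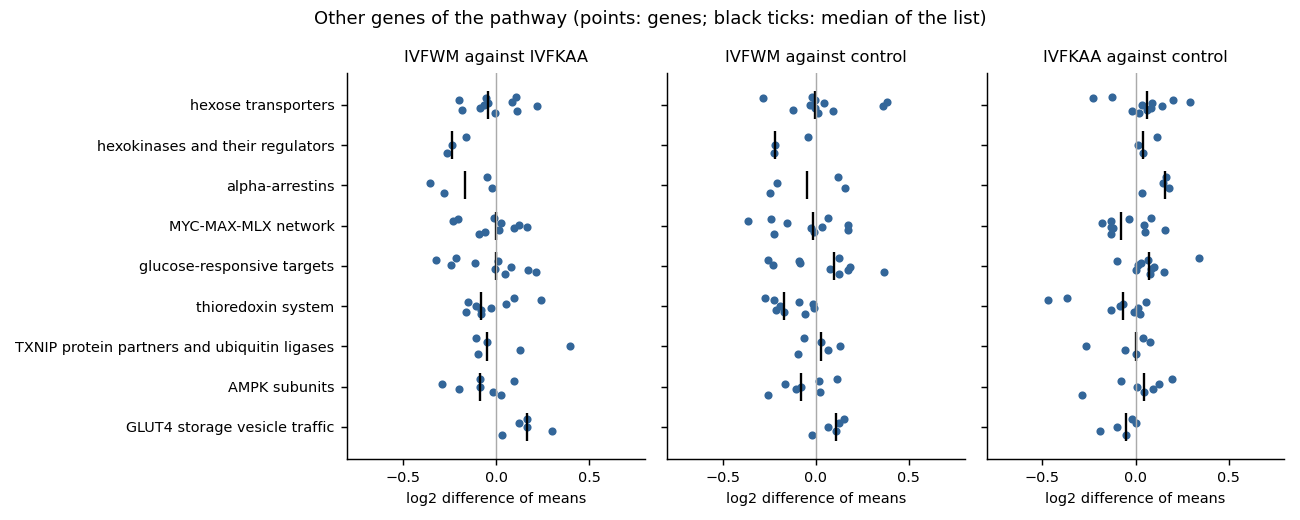
Difference of mean log2 levels for the genes of 9 pathway lists (points are genes, black ticks the median of a list), in the 3 comparisons. The 4 other alpha-arrestins lie below 0 for IVFWM against IVFKAA, with Arrdc2 at -0.024 and Arrdc5 at -0.049. The 9 thioredoxin system genes lie below 0 for IVFWM against control, and no gene passed the test.

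Markers of other cell types were followed as lists, and no single marker passed limma's test. The mean level of 10 stem cell markers was 8.58 to 9.10 in IVFWM lines, 8.55 to 8.84 in IVFKAA lines and 8.72 to 9.00 in control lines. In IVFKAA, 8 of the 10 had a lower mean than in control. Tdgf1, a co-receptor gene of stem cells, averaged 11.61 in IVFWM lines and 11.88 in control lines (difference -0.27, SE 0.065, limma adjusted p = 0.733). The 7 measured markers of primed or differentiating cells had a mean level of 4.69 to 4.82 in IVFWM lines, 4.98 to 5.03 in IVFKAA lines and 4.84 to 5.00 in control lines. The IVFWM lines were below all others, as they were for Txnip, but came close to the lowest control line. Of the 7, 6 were lower and 1 higher in IVFWM than in IVFKAA (median -0.41), and 5 lower and 2 higher than in control (median -0.056). Against control, Otx2 (-0.79) and Fgf5 (-0.40) had the largest differences. Otx2, a factor of the primed epiblast, averaged 5.29 in IVFWM lines and 5.98 in IVFKAA lines (difference -0.69, SE 0.266, limma adjusted p = 0.771).

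All 7 primitive endoderm markers were lower in IVFWM than in IVFKAA (median -0.51) and than in control (median -0.17), and 6 of 7 were higher in IVFKAA than in control. Their mean level was 4.70 to 4.99 in IVFWM lines, 5.05 to 6.11 in IVFKAA lines and 4.73 to 5.77 in control lines. For feeder fibroblast markers, 10 of 12 were higher and 2 lower in IVFWM than in control (median 0.13), with the largest differences in Acta2 (1.10) and Fn1 (0.73). Against IVFKAA, 7 were higher and 5 lower in IVFWM (median 0.059), with the largest differences in Acta2 (0.64) and Vim (0.51). Their mean level was 5.24 to 5.39 in IVFWM lines, 5.11 to 5.25 in IVFKAA lines and 5.03 to 5.05 in control lines. The IVF groups overlapped in this mean level. Its order, with IVFWM highest and control lowest, was also that of the means of Slc2a4, Slc2a1 and Mlxipl (5.13, 5.11 and 5.07). Against that order, 5 of the 12 markers were lower in IVFWM than in IVFKAA, and 3 were lower in IVFKAA than in control. Of 7 trophectoderm markers, 6 were lower in IVFWM than in IVFKAA (median -0.074). Array levels have no 0, so absence of a marker cannot be read from them, and the part of such cells in the levels of the members was not tested.

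The genes most like Txnip were sought among 10930 other clusters with 1 symbol and a mean at or above the median. Over the 9 lines the highest Pearson's r were those of Ppp2r5c (0.94), a regulatory subunit of protein phosphatase 2A, the nucleolar methyltransferase gene Fbl (0.93), Ggact (0.92), the nuclease gene Dclre1b (0.92) and the splicing factor gene Prpf4 (0.92). The lowest were those of Trmt1l (-0.94), the actin-bundling gene Fscn1 (-0.93), the transcription factor gene Nfil3 (-0.92), Zfp580 (-0.92) and Hs6st1 (-0.92). Nfil3 had 6.50, 6.44 and 6.55 in IVFWM lines, 5.90, 5.68 and 5.54 in IVFKAA lines and 5.92, 5.69 and 5.92 in control lines, so that its IVFWM lines lay above all others. Since Txnip separates IVFWM from the rest, genes that do the same rank first here, and these values are a description over 9 lines that share media and normalization.

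**Figure D5:**
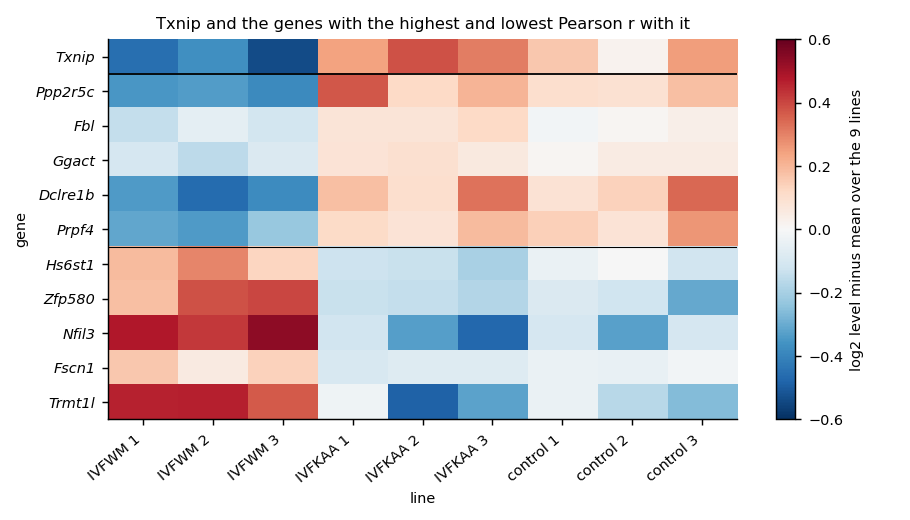
Log2 level minus the mean over the 9 lines (colour) for Txnip, the 5 genes with the highest Pearson's r with it and the 5 with the lowest. The columns are lines, with IVFWM first, and the IVFWM lines stand apart from the other 6 lines in every row shown.

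No other member followed Txnip. Its r with the other 10 member clusters ran from -0.68 (Hk1 10369541, rho -0.77) to 0.27 (Arrdc4, rho 0.15), and with Slc2a1 it was -0.46 (rho -0.33). With the mean of each group taken off, the genes most like Txnip were others: Snrpa, a protein of the U1 spliceosome particle, had an r of 0.98, followed by Selenom, Mdfi, Itpripl1 and Zfp768, and Ppil1, also a spliceosome protein, had the lowest (-0.97). On that measure the r with Txnip was 0.65 for Slc2a1, 0.60 for Slc2a4, 0.54 for Arrdc4 and 0.48 for Slc2a3. For the remaining members it ran from -0.079 (Hk2) to 0.37 (Hk1 10369541). Over the 9 lines the transporters had an r of -0.46 (Slc2a1), -0.43 (Slc2a4) and -0.012 (Slc2a3), of the opposite sign.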

How the data were processed

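Total RNA of 9 mESC lines was measured on Mouse Gene ST arrays from Affymetrix, and sample titles gave the group and number of each line. The submitters' processing notes name R 3.1.0 and Affymetrix Expression Console, the authors' methods name RMA in affylmGUI, and the deposited values are log2 levels, 1 per transcript cluster. The genome build of the array annotation is not given in the sources used here. The files hold no results of the authors' own comparisons. Of 35556 clusters, the 23410 with an annotated gene were tested, without a filter on level.

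Group differences came from a limma model (version 3.58.1, R 4.3.3) in which all 9 lines entered with a mean for each group, moderated by eBayes. The rank product was computed in numpy 2.4.6 on Python 3.11.15, with 9 pairwise differences and 100 permutations within arrays. Other tools were pandas 2.3.3, scipy 1.17.1, matplotlib 3.10.9 and, for robust eBayes, statmod 1.5.0. p-values measure the spread between lines, and the number of arrays limits the precision. Simulated data for IVFWM against IVFKAA had 23410 clusters, 200 of them changed, with independent normal noise at each cluster's SD within groups. On these, limma recovered 84% of changes of 1 and 99% of changes of 2, with 7 false calls, and the rank product recovered 94% and 100%, with 74 false calls. Those 74 are more than the 65 clusters that the rank product called in the real comparison. The simulated noise held no shift shared by many genes, such as that of chromosome 6, so these rates may not hold for the real lines. Changes smaller than 1 were not simulated, and the largest member difference was -0.76 (Txnip, IVFWM against IVFKAA). The rates therefore do not tell how often differences of the size seen in the members would be called.

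The members, the gene lists and the tests were chosen with earlier results of these data known. The text could name all members, the 2 genes of each list with the largest difference in a comparison and the 5 clusters at each end of the likeness to Txnip. For lists, the cluster with the highest mean stood for a gene, and Prdx5, Prdx6, Vamp2, Lnpep and T had no cluster of their own. Eif2s3y, Uty, Kdm5d, Rpl17 and the genes of chromosome 6 fall outside that rule, and their values had been seen when they were named. Promoters came from a RefSeq table on GRCm38.p6. Alternatives were quantile normalization, median centring, other sets of clusters, robust eBayes with a trend, only the lines of the groups compared, the line numbers as a block, a looser pfp and leaving out lines.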

Additional observations from a re-analysis of the deposited data

Results flagged for a closer look

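Txnip drew attention because the IVF groups lay on opposite sides of the control mean. All 3 IVFWM lines were below the control mean, with a difference of -0.598 for IVFWM against control, and all 3 IVFKAA lines were above it, though overlapping the control lines, with a difference of 0.164 for IVFKAA against control. Both differences use the same control lines, Txnip was chosen for its level in IVFWM, and the difference between them was not tested.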

How the results depend on the processing

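Txnip kept its sign in each alternative run. Leaving out 1 line gave -0.805 to -0.721 for IVFWM against IVFKAA, -0.66 to -0.546 for IVFWM against control and 0.103 to 0.217 for IVFKAA against control. Of 474 values of the other members, 447 kept their direction and 27, in 13 of 30 differences, did not, and the lowest adjusted p of these members from limma was 0.351. Where not stated, the cause of a change was not tested.

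The line numbers were not taken to pair the lines, since the labels give no batch. Between same-numbered lines r was -0.013 to 0.328, not always above 0.1, which does not exclude a pairing. That 8 of 9 lines were most like a line of their own number is a hint of pairing from the data, not from the design. With the replicate block the Txnip differences were -0.763, -0.598 and 0.164, limma called 0 clusters in each comparison, and 1876, 1714 and 1443 had an unadjusted p under 0.05, for IVFWM against IVFKAA, IVFWM against control and IVFKAA against control. The block cannot be applied to the rank product, 1 cluster per symbol leaves no value for Hk1 10369541, and clusters at or above the median leave none for Slc2a4.

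Limma called 0 to 1 clusters for IVFWM against IVFKAA and 0 to 1 for IVFWM against control when 1 line was left out, the 1 without IVFWM 3. The rank product called 65 clusters for IVFWM against IVFKAA, and 126 over all clusters of the arrays, 26 at or above the median level, 23 with 1 cluster per symbol, 113 at a pfp under 0.1, 40 without the 3 lines with Y-linked signal and 24 to 65 without 1 line (24 without IVFWM 2, 40 without IVFWM 1). For IVFWM against control it called 26, and 17 at or above the median level, 17 with 1 cluster per symbol, 58 at a pfp under 0.1 and 1 to 52 without 1 line (52 without control 2, 40 without IVFWM 3, 11 without IVFWM 2, 8 without IVFWM 1 and 1 without control 3). For IVFKAA against control it called 26, and 53 over all clusters of the arrays, 9 from the median level up, 13 with 1 cluster per symbol, 60 at a pfp under 0.1, 46 without the 3 lines with Y-linked signal, 53 without the lines high in chromosome 6 genes and 0 to 69 without 1 line (69 without control 1, 15 without IVFKAA 1, 7 without IVFKAA 3, 2 without control 2 and 0 without control 3). The settings that leave out the lines with Y-linked signal, or those high in chromosome 6 genes, were chosen after seeing the data.

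Without the lines with Y-linked signal, the difference of IVFWM against IVFKAA was 0.0967 for Arrdc4 and 0.277 for Slc2a3, and that of IVFWM against control was 0.224 for Hk2. Without the lines high in chromosome 6 genes, Arrdc4 had 0.032 and Hk2 0.201 against IVFKAA, and Hk2 had 0.271 against control. With quantile normalization Hk1 10414661 had 0.0107 for IVFKAA against control. Leaving out 1 line, the range for IVFWM against IVFKAA was -0.209 to 0.122 for Arrdc4, -0.3 to 0.164 for Slc2a3, -0.317 to 0.201 for Hk2, -0.00983 to 0.136 for Mlx, -0.035 to 0.267 for Mlxip and -0.0278 to 0.0505 for Mlxipl. For IVFWM against control it was -0.34 to 0.271 for Hk2, -0.0429 to 0.0756 for Mlxip and -0.0246 to 0.183 for Mlxipl. For IVFKAA against control it was -0.0576 to 0.0643 for Hk1 10414661, -0.294 to 0.388 for Hk2, -0.232 to 0.0708 for Mlxip and -0.0438 to 0.164 for Mlxipl, and the median over the members was -0.0576 to 0.164, highest without control 1.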

Other observations

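The genes most like Hk2 over the 9 lines, looked up after its values were seen, were Hipk2, Pdia4, Eps8, Ywhag and Wbp11, with a Pearson's r of 0.96 to 0.97 and a mean at or above the median of the tested clusters. Of these 5, Ywhag lies on chromosome 5 and the other 4 lie on chromosome 6 with Hk2. Pdia4, a protein disulfide isomerase of the endoplasmic reticulum, had 8.35, 8.22 and 8.37 in IVFWM lines, 9.02, 8.05 and 8.17 in IVFKAA lines and 9.08, 8.08 and 8.09 in control lines, so that IVFKAA 1 and control 1 stood above the rest as they did for Hk2. With the mean of each group taken off, the 5 genes most like Hk2 were Procr, Srgn, Ywhag, Etnk1 and Fgfbp1, of which 1, Etnk1, lies on chromosome 6.

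Chromosome 11, which carries Slc2a4 and Mlx, had a median deviation of 0.129 in IVFWM 2. In that line Slc2a4 was at 4.48, between the other IVFWM lines, and Mlx at 7.38, the highest of them. The part of the chromosome in these levels was not tested.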
